A study of Homo sapiens with 6 samples.

Results

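The genes described here are 10 that encode enzymes of purine and pyrimidine nucleotide synthesis: PPAT, GART, PAICS, ATIC, IMPDH1 and IMPDH2 for purines, and CAD, DHODH, UMPS and CTPS1 for pyrimidines. They were taken by name from a table of 20333 gene intervals, all 10 were found in it, each had well over 10 counts in every library, and all 10 were among the 19902 genes kept for testing. Nascent transcription was measured by PRO-seq, a run-on assay that maps where RNA polymerase is elongating, so a value reports transcription at the gene and not the stock of its messenger RNA. The cells were T47D, an established human luminal breast cancer line, labelled positive for the estrogen receptor and negative for HER2, and no genetic change was made in any group. All groups grew in medium with growth factors and were treated for 5 h. Control cells were given the solvent DMSO. GDC0068, which blocks catalysis by AKT kinases, was used at 500 nM, and INY-05-040, labelled Degrader, which removes the AKT proteins, at 100 nM. Per the series' design text, the unequal doses were picked so that signalling below AKT was suppressed to a like extent. Each group had 2 libraries, 1 from each of 2 independent experiments in a single cell line.

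Total counts ranged from 25371819 to 32192576 per library. The 10 genes had between 687 and 3402 counts per library, at which counting error alone is 3.82% to 1.71%. Libraries of one group differed by more than counting noise (chi-square per degree of freedom from 5.01 to 6.95), so none repeats another. All 8 luminal markers looked up, among them ESR1, GATA3 and KRT19, were in the table and summed to 5137 to 5511 CPM (counts scaled to library size) in every library. Of 14 markers of basal, fibroblast, leukocyte and endothelial cells, only ACTA2 (3.11 to 5.63 CPM) and CD68 (55.1 to 83.6 CPM) are rows of the table. Each value is relative to its library, so fewer cells, or less transcription per cell across all genes, cannot be told apart from no change.

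Cells build purines stepwise on a ribose phosphate. PPAT commits the pathway, GART and PAICS catalyse several of the middle steps, ATIC completes inosine monophosphate, and IMPDH1 or IMPDH2 turns this into the precursor of GMP. Pyrimidines start with CAD, which fuses the opening 3 activities, continue through DHODH at the mitochondrial inner membrane and UMPS, and reach cytidine nucleotides through CTPS1 or its relative CTPS2. In proliferating cells the signalling pathway of PI3K, AKT and mTORC1 is known to promote both routes, through the activity of CAD and through the transcription factors MYC and ATF4.

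After 5 h of either drug, all 10 genes had fitted values below DMSO, most of them by little, and CTPS1 had by far the largest change. Under Degrader 5 of the 10 fell (CTPS1, IMPDH2, IMPDH1, CAD and GART) and none rose, by the quasi-likelihood test of edgeR (called where p, adjusted by Benjamini-Hochberg, is under 0.05). Of all genes tested, 15.3% were called in that comparison, 7.88% lower and 7.39% higher. Under GDC0068 3 of the 10 fell (CTPS1, CAD and IMPDH2) and none rose, where 3.58% of all genes were called, 1.88% lower and 1.70% higher. The median log2 fold change of the 10 was -0.20 under Degrader and -0.19 under GDC0068, against 0.00 and 0.01 over all genes tested. The values ran from -0.73 to -0.11 under Degrader and from -0.50 to -0.10 under GDC0068, while 50.3% and 47.4% of all genes had a value below 0. In all 10 genes both libraries of each drug lay below both DMSO libraries, which held for 29.2% of all genes under Degrader and 24.0% under GDC0068. The 2 comparisons share their DMSO libraries and are therefore not independent of each other. The counts of calls depend on the libraries used. Without any 1 library of the groups compared, fewer of the 10 were called under either drug. Fewer of all genes were called as well, since 1 group then held 1 library, so this loss does not set the 10 apart. Leaving out 1 library, the Degrader value ranged from -0.22 to -0.21 for GART and from -0.27 to -0.08 for DHODH. With the replicate number as a block, 8 of the 10 were called lower under each drug, and none higher. Of all genes, that fit called 15.7% lower and 15.1% higher under Degrader, and 8.91% lower and 8.87% higher under GDC0068.

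**Figure D1:**
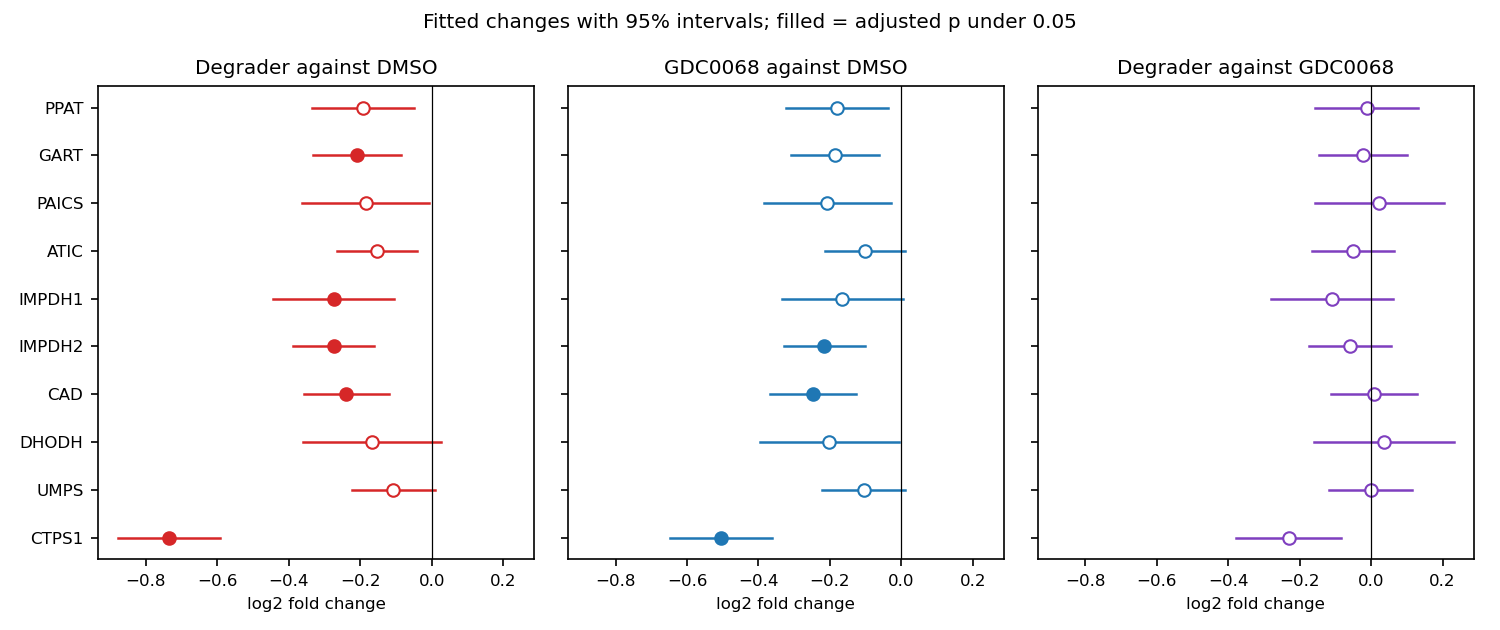
Fitted log2 fold change (x axis) of each of the 10 genes (y axis) with its 95% interval from the edgeR fit, in the 3 comparisons; filled points have an adjusted p under 0.05. CTPS1 sits farthest to the left against DMSO, at -0.73 under Degrader and -0.50 under GDC0068, while the right-hand panel holds no filled point.

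Start regions of some of these genes are shown because the 10 genes had lower values together, and so that letters they share can be read directly. The sequences are RefSeq's, build GRCh38.p14, 5′ to 3′ on the gene's own strand, and 9 of the 10 genes had an entry in the table used (IMPDH2 had none). Capitals mark the E-box CACGTG, the core letters read by MYC and related factors, and the GC box GGGCGG or its complement CCGCCC, read by factors of the SP family. Each stretch ends just before the start of transcription, except for CAD, where it ends before the start given in the deposited table.
CTPS1, chr1:40979561-40979695, plus strand: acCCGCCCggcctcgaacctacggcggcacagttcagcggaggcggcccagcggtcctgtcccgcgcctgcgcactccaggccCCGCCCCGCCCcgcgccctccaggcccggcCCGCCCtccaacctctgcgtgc
CAD, chr2:27217234-27217322, plus strand: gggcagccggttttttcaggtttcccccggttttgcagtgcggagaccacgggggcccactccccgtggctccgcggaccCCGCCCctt
IMPDH1, chr7:128409983-128410117, minus strand: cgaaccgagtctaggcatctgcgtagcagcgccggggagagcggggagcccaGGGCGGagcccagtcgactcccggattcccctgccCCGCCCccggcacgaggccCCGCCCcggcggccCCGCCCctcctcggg
GART, chr21:33542118-33542252, minus strand: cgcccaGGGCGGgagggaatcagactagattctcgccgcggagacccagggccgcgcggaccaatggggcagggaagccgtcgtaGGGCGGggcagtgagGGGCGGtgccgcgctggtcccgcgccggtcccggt
PPAT, chr4:56435616-56435750, minus strand: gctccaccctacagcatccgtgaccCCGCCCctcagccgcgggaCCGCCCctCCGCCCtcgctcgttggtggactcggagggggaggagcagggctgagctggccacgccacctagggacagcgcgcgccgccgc
ATIC, chr2:215311924-215312058, plus strand: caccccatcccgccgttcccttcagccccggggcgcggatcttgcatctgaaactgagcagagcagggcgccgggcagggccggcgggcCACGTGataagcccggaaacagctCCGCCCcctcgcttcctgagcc
The E-boxes of PPAT and DHODH lie farther from the start, 182 and 159 bases before it, and are given in short stretches.
PPAT, chr4:56435780-56435809, minus strand: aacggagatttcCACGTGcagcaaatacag
DHODH, chr16:72008573-72008602, plus strand: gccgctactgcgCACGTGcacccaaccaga
Windows of 300 bases, from 250 before the RefSeq start to 50 after it, were searched on both strands, taking for each gene the RefSeq start nearest to the deposited one. The printed stretches are parts of these windows, and those of PAICS and UMPS are not printed. The E-box was found in 3 of 9 genes (PPAT, ATIC and DHODH), and 7.26% of all 35116 RefSeq windows hold it. ATIC held 2, of which only the one 46 bases before the start is printed. The GC box was found in 8 of 9, all but UMPS, and in 45.0% of all windows; 2 of the GC boxes of CTPS1 share a letter. The forkhead letters GTAAACA or TGTTTAC, read by FOXO factors, were found in none of the 9 and in 3.42% of all windows. The windows held 23 to 38 CG pairs (median 27, against 14 over all windows). Of the 5 genes called under Degrader, 4 had a window and none of these windows held the E-box. With only 4 windows and a share of 7.26% over all windows, finding none is not informative. PPAT, ATIC and DHODH, whose windows held it, were called under Degrader only with the replicate block. Whether the E-box goes with the calls was not tested. Letters more than 50 bases after the RefSeq start were not searched, so a gene without a match may hold the letters elsewhere. Matching letters are a description and do not show binding. The RefSeq start of CTPS1 used here lies 357 bases from the start in the deposited table.

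CTPS1 encodes CTP synthase 1, which makes CTP from UTP and is the form of the enzyme on which proliferating lymphocytes depend. Its gene (ENSG00000171793, chromosome 1, 40980053 to 41012565, plus strand, in the deposited coordinates) gave 49.8 and 48.5 CPM in DMSO, 35.7 and 33.7 with GDC0068, and 30.4 and 28.7 with Degrader. The 3 groups did not overlap, and the Degrader libraries were the lowest. CTPS1 was 39.9% lower under Degrader, a log2 fold change of -0.73 (adjusted p by edgeR = 1.07e-04, with SE 0.066). Under GDC0068 it was 29.5% lower, with a log2 fold change of -0.50 (adjusted p by edgeR = 0.00417, with SE 0.065). Of the 1569 genes called lower under Degrader, 82 had a larger fitted fall, and of the 374 called lower under GDC0068, 57 did. Their median log2 fold changes were -0.32 in each comparison. Without DMSO replicate 1 the GDC0068 value was -0.49 and no longer called (edgeR adjusted p = 0.0569).

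CTPS2, which encodes the second CTP synthase, was not called under either drug. It gave 139 and 138 CPM in DMSO, 135 and 136 with GDC0068, and 151 and 137 with Degrader, with log2 fold changes of -0.03 (edgeR adjusted p = 0.797) for GDC0068 and 0.05 (edgeR adjusted p = 0.571) for Degrader. Within each library, the count of CTPS1 divided by that of CTPS2 was 0.358 and 0.351 in DMSO, 0.264 and 0.248 with GDC0068, and 0.202 and 0.210 with Degrader. The ratio thus separated all 3 groups; it was not tested. Per kilobase of interval, CTPS1 stood above CTPS2 in DMSO (1.53 and 1.49 against 1.12 and 1.11 CPM per kb) and below it under Degrader (0.935 and 0.882 against 1.21 and 1.10), while under GDC0068 they overlapped (1.10 and 1.04 against 1.08 and 1.09).

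**Figure D2:**
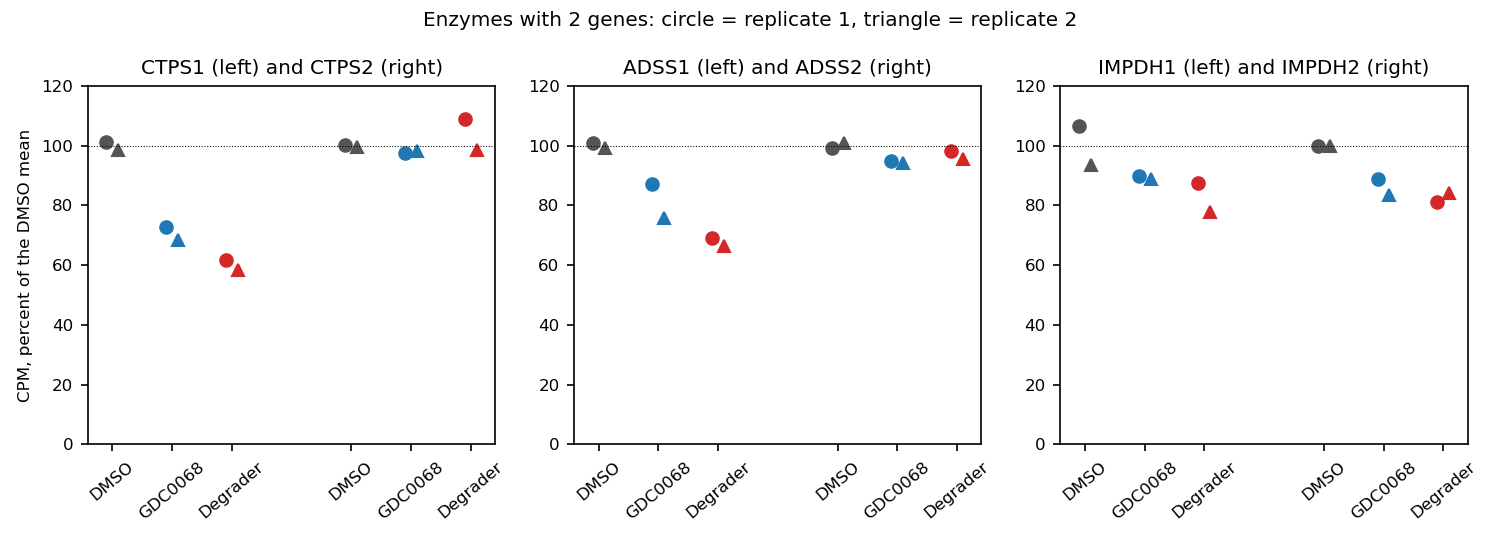
CPM of each library as a percentage of the gene's DMSO mean (y axis, from 0) for 3 enzymes that have a pair of genes, by group (x axis), with circles for replicate 1 and triangles for replicate 2. CTPS1 and ADSS1 drop stepwise from DMSO to GDC0068 to Degrader while CTPS2 and ADSS2 stay near 100, and both IMPDH genes are lower under each drug. The step between the drugs was called for CTPS1 (edgeR adjusted p = 0.165) and ADSS1 (edgeR adjusted p = 0.121) only with the replicate block.

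The genes whose profile over the 6 libraries was most like that of CTPS1 were sought among 13896 other genes with at least 10 CPM, by the root mean square difference of log2 CPM after centring each gene on its mean. The closest were VEGFA (difference 0.03), the angiogenic growth factor, MTHFD1L (0.05), a mitochondrial enzyme that releases formate, and SLFNL1-AS1 (0.06), an antisense transcript. The median difference over all these genes was 0.32. SLFNL1-AS1 (chromosome 1, 41015418 to 41043890, plus strand) gave 106 and 102 CPM in DMSO, 67.8 and 68.3 with GDC0068, and 61.0 and 55.9 with Degrader, and had fitted log2 values of -0.83 against DMSO with Degrader (edgeR adjusted p = 2.66e-05) and -0.61 with GDC0068 (edgeR adjusted p = 6.58e-04). It begins 2852 bases past the end of CTPS1 on the same strand, with no other interval of that strand between them. Whether polymerases that had passed the end of CTPS1 contribute to its count was not tested.

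Among the other pyrimidine genes, CAD fell under both drugs. CAD (ENSG00000084774, chromosome 2, 27217323 to 27243943, plus strand) gave 82.2 and 88.9 CPM in DMSO, 72.9 and 71.2 with GDC0068, and 72.4 and 72.5 with Degrader. The drug groups overlapped each other and lay below DMSO, whose libraries were spread more widely than those of either drug. The log2 fold change was -0.24 (adjusted p by edgeR = 0.0133, with SE 0.055) under Degrader and -0.25 (adjusted p by edgeR = 0.0344, with SE 0.055) under GDC0068. The Degrader call was lost without DMSO replicate 2 (-0.18, edgeR adjusted p = 0.103), Degrader replicate 1 (-0.24, edgeR adjusted p = 0.0642) or Degrader replicate 2 (-0.25, edgeR adjusted p = 0.0811). The GDC0068 call was lost without any 1 of the DMSO or GDC0068 libraries, with values of -0.31 without DMSO replicate 1 (edgeR adjusted p = 0.0753), -0.19 without DMSO replicate 2 (edgeR adjusted p = 0.191), -0.27 without GDC0068 replicate 1 (edgeR adjusted p = 0.0850) and -0.24 without GDC0068 replicate 2 (edgeR adjusted p = 0.131).

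DHODH, the dehydrogenase that passes electrons from dihydroorotate to ubiquinone (ENSG00000102967, chromosome 16, 72008805 to 72027659, plus strand), gave 39.8 and 38.2 CPM in DMSO, 36.6 and 31.4 with GDC0068, and 37.2 and 32.3 with Degrader. In each group replicate 2 was the lower library, and the gap was wider under the drugs than in DMSO. Neither the value of -0.17 under Degrader (edgeR adjusted p = 0.237) nor that of -0.20 under GDC0068 (edgeR adjusted p = 0.232) was called. With the replicate block both were (edgeR adjusted p of 0.0432 and 0.0248). UMPS, whose protein carries out the final pair of steps to UMP (ENSG00000114491, chromosome 3, 124730457 to 124749273, plus strand), gave 80.4 and 78.7 CPM in DMSO, 71.6 and 76.2 with GDC0068, and 75.0 and 72.7 with Degrader. It was called by neither fit, at -0.11 under each drug (edgeR adjusted p = 0.202 for Degrader and 0.297 for GDC0068). The 95% intervals were -0.22 to 0.01 in both comparisons, so a fall of the size seen for CTPS1 lies outside them.

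Of the genes that lead to inosine monophosphate, GART fell under Degrader. GART (ENSG00000159131, chromosome 21, 33503933 to 33542112, minus strand), whose protein holds 3 activities of the pathway, gave 75.0 and 75.3 CPM in DMSO, 63.2 and 68.9 with GDC0068, and 65.6 and 64.5 with Degrader. The DMSO libraries differed little from each other and lay above all 4 drug libraries. The log2 fold change was -0.21 under Degrader (adjusted p by edgeR = 0.0283, with SE 0.056) and -0.19 under GDC0068 (adjusted p by edgeR = 0.0933, with SE 0.056, or 0.00483 with the replicate block). With DESeq2 the Degrader value was -0.21 and not called (DESeq2 adjusted p = 0.0629). It was also not called by edgeR without DMSO replicate 1 (-0.22, edgeR adjusted p = 0.125), DMSO replicate 2 (-0.21, edgeR adjusted p = 0.102), Degrader replicate 1 (-0.22, edgeR adjusted p = 0.0925) or Degrader replicate 2 (-0.21, edgeR adjusted p = 0.151). SON, an RNA splicing gene that starts 926 bases from GART on the opposite strand, had log2 fold changes of -0.03 under Degrader (edgeR adjusted p = 0.704) and -0.07 under GDC0068 (edgeR adjusted p = 0.493).

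PPAT and PAICS lie head to head on chromosome 4, with starts 526 bases apart. PPAT (ENSG00000128059, 56393362 to 56435612, minus strand), the amidotransferase that commits the purine pathway, gave 37.3 and 37.2 CPM in DMSO, 33.5 and 32.3 with GDC0068, and 32.8 and 32.3 with Degrader. Its changes of -0.19 under Degrader (edgeR adjusted p = 0.0684) and -0.18 under GDC0068 (edgeR adjusted p = 0.152) were called only with the replicate block (edgeR adjusted p of 0.0188 and 0.0441). PAICS (ENSG00000128050, 56436138 to 56461368, plus strand), which joins carboxylase and ligase activities in 1 protein, gave 34.1 and 30.7 CPM in DMSO, 27.0 and 29.1 with GDC0068, and 29.4 and 27.8 with Degrader. Its DMSO libraries differed by more than the gap between the lower of them and the nearest drug library. The change was -0.18 under Degrader (edgeR adjusted p = 0.154, or 0.0526 with the replicate block) and -0.21 under GDC0068 (edgeR adjusted p = 0.183, or 0.0493 with the replicate block). An unnamed transcript, AC068620.3, covers 21033 bases of the PPAT interval on the opposite strand. It had 75 to 139 counts per library and rose under Degrader (log2 fold change 0.74, edgeR adjusted p = 0.0234). Since the use of strand in counting is not given in the sources used here, its reads and those of PPAT may not be separate.

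ATIC, the bifunctional enzyme that closes the purine ring (ENSG00000138363, chromosome 2, 215312152 to 215349764, plus strand), gave 69.9 and 69.2 CPM in DMSO, 65.9 and 63.8 with GDC0068, and 62.0 and 63.2 with Degrader. The groups did not overlap, although the steps between them were small. Its change was -0.15 under Degrader (edgeR adjusted p = 0.0677, or 0.00974 with the replicate block) and -0.10 under GDC0068 (edgeR adjusted p = 0.299, or 0.117 with the replicate block). AC092844.1, which starts 243 bases away on the opposite strand, had log2 fold changes of 0.04 under Degrader (edgeR adjusted p = 0.763) and 0.00 under GDC0068 (edgeR adjusted p = 0.997).

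**Figure D3:**
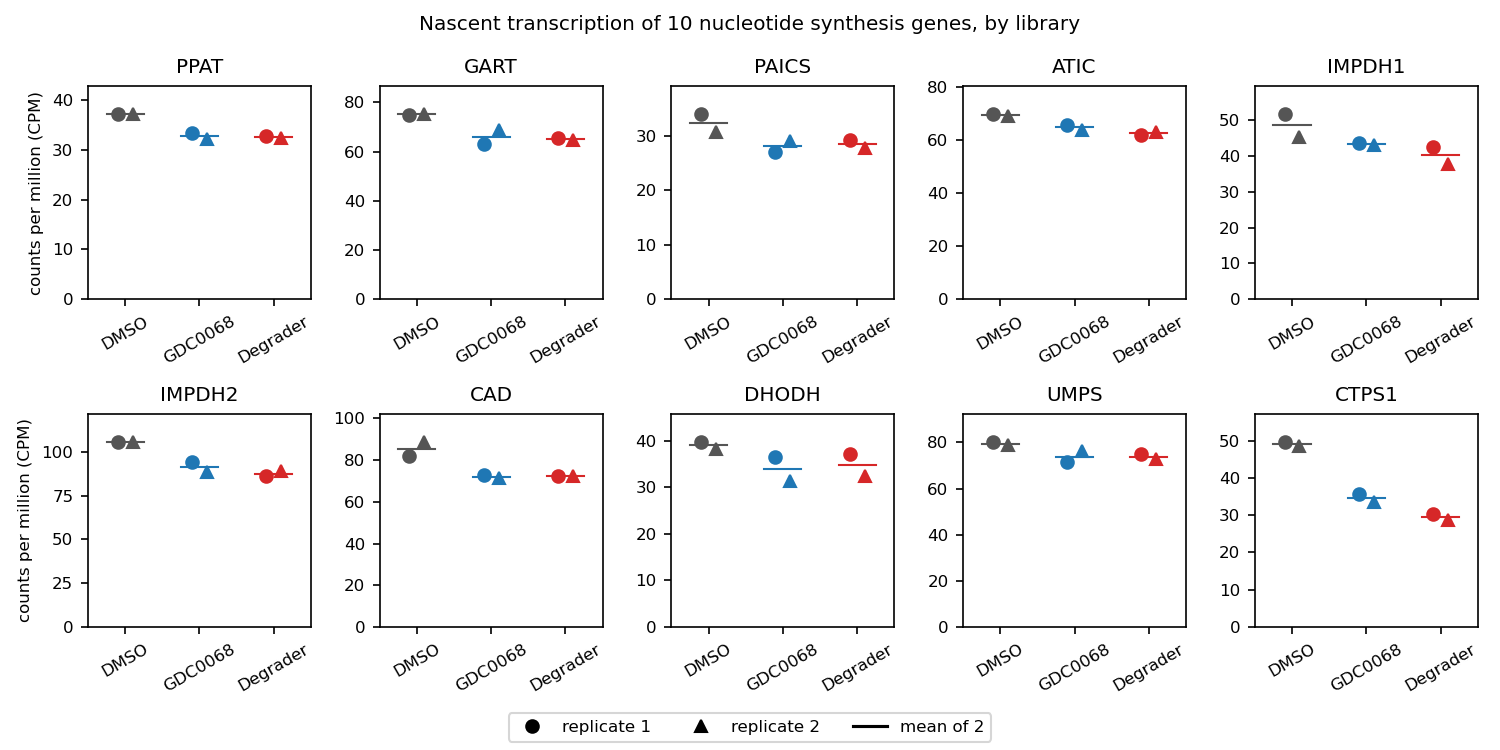
CPM (y axis, from 0) of the 10 genes in the 6 libraries, by group (x axis); circles are replicate 1, triangles replicate 2 and lines the mean of 2. Every drug library lies below both DMSO libraries of the same gene, and the step is largest for CTPS1.

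Both IMPDH genes, which encode the rate-limiting enzyme of GMP synthesis, fell under Degrader. IMPDH2 (ENSG00000178035, chromosome 3, 49024325 to 49029398, minus strand), the form that is raised in dividing cells, gave 105.9 and 105.9 CPM in DMSO, 94.2 and 88.3 with GDC0068, and 86.1 and 89.1 with Degrader. The DMSO libraries were nearly equal and lay above all others, while the drug groups overlapped. Its log2 fold change was -0.27 under Degrader (adjusted p by edgeR = 0.00528, with SE 0.052), and this call held in all 14 alternative fits. Under GDC0068 it was -0.22 (adjusted p by edgeR = 0.0444, with SE 0.052), and this call was lost in 8 of the 14, among them DESeq2 (DESeq2 adjusted p = 0.0679) and the fit to the 4 libraries compared (edgeR adjusted p = 0.0591). The value was -0.18 without GDC0068 replicate 2 (edgeR adjusted p = 0.180), -0.26 without GDC0068 replicate 1 (edgeR adjusted p = 0.0605), -0.22 without either DMSO library (edgeR adjusted p of 0.188 without replicate 1 and 0.160 without replicate 2) and -0.22 without either Degrader library (edgeR adjusted p of 0.0567 and 0.0577). AC137630.3 overlaps 384 bases of IMPDH2 on the opposite strand. Its log2 fold changes of 0.32 under Degrader (edgeR adjusted p = 0.116) and 0.42 under GDC0068 (edgeR adjusted p = 0.0914) were called higher only with the replicate block (edgeR adjusted p of 0.0118 and 0.00216).

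IMPDH1 (ENSG00000106348, chromosome 7, 128392301 to 128409963, minus strand) gave 51.8 and 45.4 CPM in DMSO, 43.6 and 43.2 with GDC0068, and 42.6 and 37.9 with Degrader. The groups did not overlap, but replicate 2 was clearly the lower library in DMSO and under Degrader. The log2 fold change was -0.27 under Degrader (adjusted p by edgeR = 0.0346, with SE 0.078) and -0.17 under GDC0068 (adjusted p by edgeR = 0.260, with SE 0.077, or 0.0475 with the replicate block). The Degrader value was -0.18 without DMSO replicate 1 (edgeR adjusted p = 0.286) and -0.20 without Degrader replicate 2 (edgeR adjusted p = 0.240). The table also lists 2 pseudogenes of IMPDH1, IMPDH1P5 and IMPDH1P10, and reads could be shared with such copies.

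Set against the DMSO library of its own replicate, every one of the 10 genes was lower in both replicates under both drugs. This follows from both libraries of each drug lying below both DMSO libraries, and is not a separate result. For CTPS1 the log2 CPM ratio to DMSO was -0.71 and -0.76 in the 2 replicates under Degrader, and -0.48 and -0.53 under GDC0068. IMPDH2 gave -0.30 and -0.25 under Degrader, and -0.17 and -0.26 under GDC0068. The replicates were least alike for PAICS under GDC0068, at -0.33 and -0.08, and for IMPDH1 under GDC0068, at -0.25 and -0.07. For these genes the spread between replicates was as large as the change itself.

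**Figure D4:**
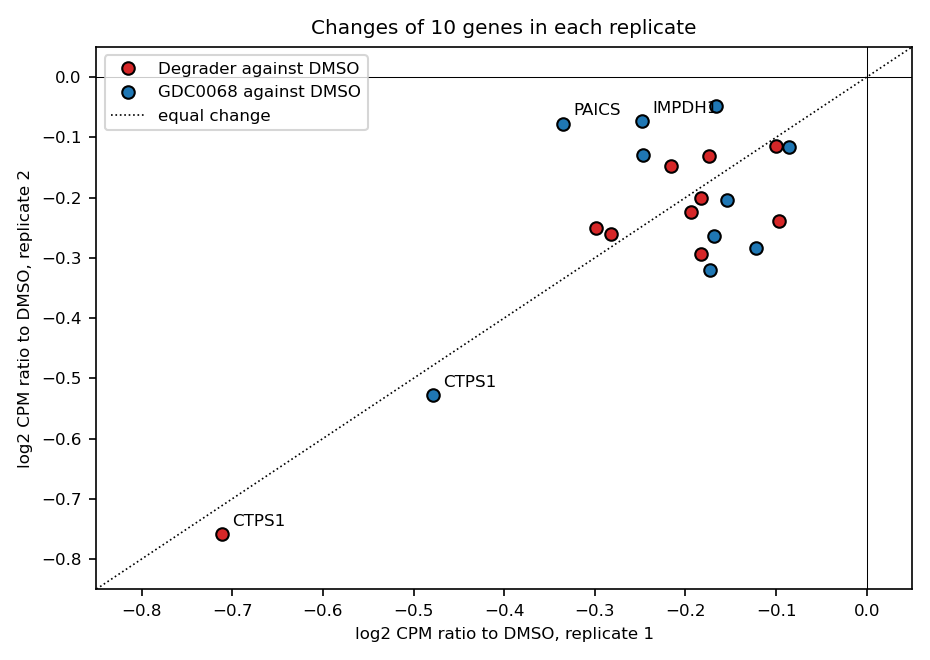
Log2 ratio of CPM to the DMSO library of the same replicate, replicate 1 (x axis) against replicate 2 (y axis), for the 10 genes under Degrader (red) and GDC0068 (blue); the dotted line marks equal change. All 20 points lie below 0 on both axes, which follows from every drug library lying below both DMSO libraries of the same gene. The CTPS1 points stand apart from the others near the dotted line.

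Whether degradation and inhibition of AKT differed in these genes was asked by setting Degrader against GDC0068 directly, at doses that differ. None of the 10 genes was called by edgeR, where 0.266% of all genes were. None was called by DESeq2 or limma voom either, and 1, CTPS1, had an unadjusted p under 0.05. The fitted value was below 0 in 7 of the 10, against 51.1% of all genes. CTPS1 was 14.8% lower under Degrader than under GDC0068, a log2 fold change of -0.23 (95% interval -0.38 to -0.08, edgeR adjusted p = 0.165), and both replicates gave -0.23. With the replicate block it was called (edgeR adjusted p = 0.0145), where 10.4% of all genes were called, 5.35% lower and 5.03% higher. The next largest differences were those of IMPDH1, at -0.11 (95% interval -0.28 to 0.06), and IMPDH2, at -0.06 (-0.17 to 0.05). The smallest were those of UMPS, at 0.00 (95% interval -0.12 to 0.12), and CAD, at 0.01 (-0.11 to 0.13). In 3 of the 10 genes (ATIC, IMPDH1 and CTPS1) both Degrader libraries lay below both GDC0068 libraries, against 22.9% of all genes. The intervals of the 9 genes other than CTPS1 allow differences between the drugs from -0.28 to 0.23 on the log2 scale.

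The genes also differ in how strongly they are transcribed. Per kilobase of interval in DMSO, IMPDH2 had the highest level, at 20.9 ± 0.0073 CPM per kb (SD, n = 2 here and below), on an interval of only 5.07 kb. UMPS followed at 4.23 ± 0.064, CAD at 3.21 ± 0.18, IMPDH1 at 2.75 ± 0.26, DHODH at 2.07 ± 0.062, GART at 1.97 ± 0.0064, ATIC at 1.85 ± 0.014, CTPS1 at 1.51 ± 0.027, PAICS at 1.28 ± 0.094 and PPAT at 0.881 ± 0.0016 CPM per kb. No neighbours in this order overlapped in DMSO, though 2 libraries give only a coarse measure of spread. Under Degrader CTPS1 (0.909 ± 0.037 CPM per kb) lay below PAICS (1.13 ± 0.045), with no overlap, and under GDC0068 the libraries of CTPS1 (1.07 ± 0.045) and PAICS (1.11 ± 0.059) overlapped. Which part of each gene was counted is not given in the sources used here, and its effect on levels per kilobase was not tested.

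The wider pathway was read through 8 lists with 76 genes, of which 69 were in the table and tested. Under Degrader 18 of the 69 fell and 4 rose, where 7.88% of all genes were called lower and 7.39% higher. Under GDC0068 9 fell and 1 rose, where 1.88% of all genes were called lower and 1.70% higher. With the replicate block the counts were 27 lower and 9 higher under Degrader (15.7% and 15.1% of all genes), and 22 lower and 4 higher under GDC0068 (8.91% and 8.87% of all genes). None of the 69 was called between the drugs, and the blocked fit called 5 lower and 5 higher under Degrader than under GDC0068, a share near the 5.35% and 5.03% of all genes. Refits without single libraries were made for the 10 synthesis genes only. Of the 6 remaining genes of the synthesis routes, 3 fell under Degrader and 1 of these under GDC0068. With the replicate block 4 were lower under Degrader and 2 under GDC0068. ADSS1, an adenylosuccinate synthase best known from muscle, gave 86.0 and 84.4 CPM in DMSO, 74.4 and 64.5 with GDC0068, and 58.8 and 56.5 with Degrader. Its log2 fold change was -0.56 under Degrader (edgeR adjusted p = 4.79e-04) and -0.30 under GDC0068 (edgeR adjusted p = 0.0354). Its relative ADSS2 had values of -0.04 (edgeR adjusted p = 0.619) and -0.08 (edgeR adjusted p = 0.432). The GMP synthetase gene GMPS (-0.19, edgeR adjusted p = 0.0368) and PFAS (-0.28, edgeR adjusted p = 0.0485), which acts between steps carried out by GART, fell under Degrader. Their GDC0068 values were -0.15 (edgeR adjusted p = 0.141, or 0.00461 and called lower with the replicate block) and -0.20 (edgeR adjusted p = 0.222).

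**Figure D5:**
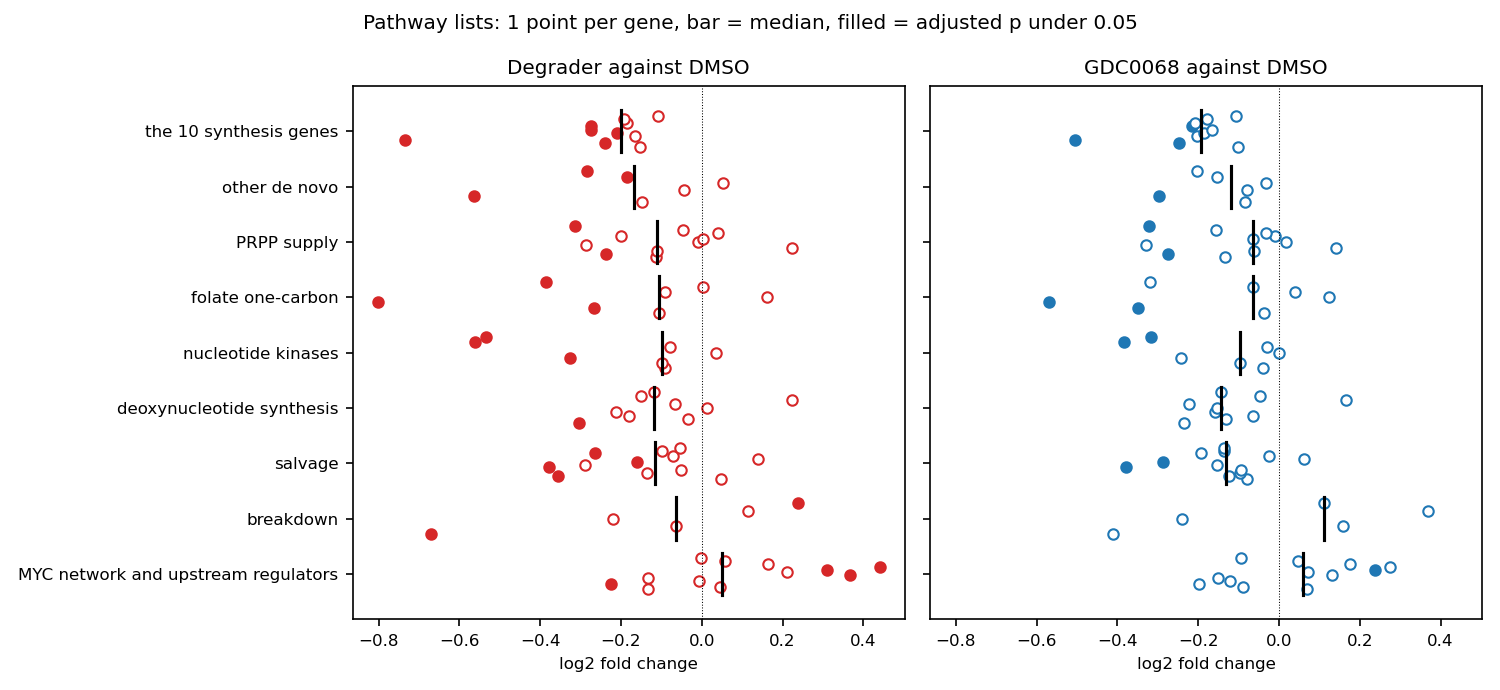
Log2 fold change (x axis) of every tested gene in the 10 synthesis genes and the 8 pathway lists (y axis), 1 point per gene, against DMSO; the bar is the list's median and filled points have an adjusted p under 0.05. Filled points lie left of 0 in every list that has any, except for NT5C2 in the breakdown list and MXD4, MXD1 and MXI1 in the regulator list.

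A few genes that supply building blocks were also called lower. Of 11 genes that provide phosphoribosyl pyrophosphate or its pentose, the same 2 fell under both drugs: TKT, transketolase (-0.31 under Degrader, edgeR adjusted p = 0.00555, and -0.32 under GDC0068, edgeR adjusted p = 0.0177), and PGD of the oxidative pentose phosphate branch (-0.24, edgeR adjusted p = 0.0243, and -0.27, edgeR adjusted p = 0.0361). The list's median was -0.11 under Degrader and -0.07 under GDC0068. Of 7 tested genes of folate one-carbon metabolism, which donates carbons to the purine ring, 3 fell under Degrader. MTHFD1L fell most, from 58.3 and 57.9 CPM in DMSO to 40.6 and 37.8 under GDC0068 and 35.6 and 31.0 under Degrader (log2 fold change under Degrader -0.80, edgeR adjusted p = 1.22e-04, and under GDC0068 -0.57, edgeR adjusted p = 0.00398). MTHFD1, the cytosolic trifunctional enzyme, fell by 0.27 (edgeR adjusted p = 0.00709) and by 0.35 (edgeR adjusted p = 0.00907), in the same order. SHMT2, the mitochondrial serine hydroxymethyltransferase, fell by 0.39 under Degrader (edgeR adjusted p = 0.0167), while its GDC0068 value was -0.32 (edgeR adjusted p = 0.0799, or 0.00981 and called lower with the replicate block). MTHFD2 had a value of 0.16 under Degrader, called higher only with the replicate block (edgeR adjusted p = 0.0625, or 6.78e-04 with the block). The same held for its GDC0068 value of 0.125 (edgeR adjusted p = 0.216, or 0.0119 with the block).

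Downstream of synthesis, the nucleoside diphosphate kinase genes NME1 and NME2 fell under both drugs. NME1 gave 46.2 and 43.3 CPM in DMSO, 35.9 and 32.9 under GDC0068, and 31.7 and 29.1 under Degrader (log2 fold change under Degrader -0.56, edgeR adjusted p = 7.97e-04, and under GDC0068 -0.38, edgeR adjusted p = 0.0207). NME2 changed by -0.53 (edgeR adjusted p = 0.00142) and -0.32 (edgeR adjusted p = 0.0484); the 2 genes are close neighbours with alike sequences, so their reads may be split between them. AK4, a mitochondrial adenylate kinase, fell by 0.33 under Degrader (edgeR adjusted p = 0.00515). Its GDC0068 value was -0.24 (edgeR adjusted p = 0.0528, or 0.0025 and called lower with the replicate block). Together these were 3 of 7 kinase genes under Degrader and 2 of 7 under GDC0068, or 3 of 7 under each drug with the replicate block. Of 9 genes of deoxynucleotide synthesis, only DCTD, dCMP deaminase, was called under Degrader (-0.30, edgeR adjusted p = 0.0272) and none under GDC0068. The GDC0068 value of DCTD was -0.23 (edgeR adjusted p = 0.136, or 0.0196 and called lower with the replicate block). With the block 4 of the 9 were lower under each drug and 1 was higher under Degrader.

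Of 12 tested salvage genes, which recycle bases and nucleosides, 4 fell under Degrader and 2 under GDC0068. Of all genes, 7.88% and 1.88% were called lower. With the replicate block 6 were lower and 1 higher under Degrader, and 4 were lower under GDC0068. That fit called 15.7% of all genes lower and 15.1% higher under Degrader, and 8.91% lower under GDC0068. HPRT1, which recycles hypoxanthine and guanine, fell by 0.38 under each drug (edgeR adjusted p = 0.0196 for Degrader and 0.0487 for GDC0068). TK1, thymidine kinase, fell by 0.16 under Degrader (edgeR adjusted p = 0.0470) and by 0.29 under GDC0068 (edgeR adjusted p = 0.0130). UCK2, a uridine and cytidine kinase (-0.26, edgeR adjusted p = 0.00692), and APRT, which recycles adenine (-0.36, edgeR adjusted p = 0.0113), fell under Degrader. Under GDC0068 they had values of -0.19 (edgeR adjusted p = 0.0667, or 4.79e-04 and called lower with the replicate block) and -0.12 (edgeR adjusted p = 0.407). The difference between the drugs was called for neither gene, although with the replicate block it was for APRT (edgeR adjusted p = 0.0103). Among 5 tested breakdown genes, NT5C2, a cytosolic nucleotidase, rose under Degrader (0.24, edgeR adjusted p = 0.00661) and ADA, adenosine deaminase, fell (-0.67, edgeR adjusted p = 0.0382) from 12.7 and 9.59 CPM to 8.29 and 5.76. The GDC0068 value of NT5C2 was 0.11 (edgeR adjusted p = 0.208, or 0.0254 and called higher with the replicate block). That of ADA was -0.41 (edgeR adjusted p = 0.259, or 0.0114 and called lower with the block). Between the drugs neither was called (edgeR adjusted p of 0.260 and 0.591), although with the block NT5C2 was (edgeR adjusted p = 0.0203).

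Of 12 regulators looked up, MYC, the transcription factor known to drive many of the genes above, was not called. It gave 169 and 114 CPM in DMSO, 168 and 153 with GDC0068, and 168 and 149 with Degrader, so the DMSO libraries enclosed all the others. The log2 CPM ratio to DMSO was -0.01 in replicate 1 and 0.39 in replicate 2 under Degrader, and -0.01 and 0.42 under GDC0068; the blocked fit called it higher under each drug (edgeR adjusted p of 0.0199 and 0.0191), with values near 0 in replicate 1. Of 5 listed genes of factors that share the partner MAX with MYC and act against it, 3 rose under Degrader: MXD4 (0.31, edgeR adjusted p = 0.00384), MXD1 (0.37, edgeR adjusted p = 0.00676) and MXI1 (0.44, edgeR adjusted p = 0.0193). The other two were MXD3 (0.21, edgeR adjusted p = 0.0562, or 0.00296 and called higher with the replicate block) and MNT (-0.01, edgeR adjusted p = 0.954). MXD4 also rose under GDC0068 (0.24, edgeR adjusted p = 0.0407), from 87.4 and 88.7 CPM in DMSO to 109 and 98.9. MXD1 (0.13, edgeR adjusted p = 0.348) and MXI1 (0.27, edgeR adjusted p = 0.190) were not called under GDC0068. The difference between the drugs was called for neither gene (edgeR adjusted p of 0.182 for MXD1 and 0.509 for MXI1). With the replicate block it was called for MXD1 (edgeR adjusted p = 0.0166) and not for MXI1. ATF4 was called lower under Degrader only with the replicate block (-0.13, edgeR adjusted p = 0.194, or 0.0273). Its GDC0068 value was 0.07 (edgeR adjusted p = 0.594). MTOR was called lower only with the block, at -0.13 under Degrader (edgeR adjusted p = 0.0822, or 0.00500) and -0.15 under GDC0068 (edgeR adjusted p = 0.107, or 0.00365). MLX, the partner of a parallel network, fell under Degrader (-0.22, edgeR adjusted p = 0.0172). Its GDC0068 value was -0.20 (edgeR adjusted p = 0.0658, or 0.00377 and called lower with the replicate block). The list as a whole had 3 genes higher and 1 lower under Degrader, or 5 and 3 with the block. Under GDC0068 it had 1 higher and 0 lower, or 2 and 2 with the block.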

How the data were processed

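PRO-seq counts were analysed for 6 libraries. The deposited values are raw counts per gene interval, 1 column per library, per the file headers, and their totals differ between libraries. The submitters' processing notes name cutadapt 1.14, Bowtie 1.2.2, SAMtools 1.3.1, HISAT2 2.2.1 and limma, and the builds hg38, GRCh38 and dm3 (fruit fly), without roles. No fly counts were used here, so changes are relative to the bulk of genes. Duplicate removal, strand use and the counted part of a gene are not given in the sources used here. Coordinates are those of the deposited table with starts counted from 1. All 10 intervals overlapped the RefSeq gene of the same name in GRCh38.p14.

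Counts were fitted in R 4.3.3 with edgeR 4.0.16: filterByExpr (minimum count 10), TMM scaling, glmQLFit and glmQLFTest over all 6 libraries with a term per group (3 residual and 8.65 prior degrees of freedom), and Benjamini-Hochberg adjustment over all 19902 genes. Calls need an adjusted p under 0.05. SE is the log2 fold change divided by the root of F, and 95% intervals use the t distribution. CPM uses TMM-scaled library sizes, and log2 CPM a prior count of 2. The steps were tested on simulated data, where 21 of 50 changes of 1.2-fold and 49 of 50 of 1.5-fold were called for Degrader against DMSO. Changes as small as most of those described here can thus go uncalled. The simulation held no deviation shared by same-numbered libraries and changed far fewer genes than were called here. Its rates therefore need not hold for these data. Alternatives used DESeq2 1.42.0 and limma 3.58.1 (voom), other scalings, no filter, robust estimation, 4 libraries, and 1 library left out.

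The replicate numbers in the labels stand beside 2 independent experiments in the design text. Same-numbered libraries deviated together from their group means (correlation across genes 0.177 to 0.220 for the 3 pairs of groups), so the replicate block is given beside printed values whose call it changes. All libraries come from 1 cell line, and p-values measure the spread between these libraries, part of which may be technical.

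The 10 genes, the pathway lists and the tests were chosen with earlier results of these data known. Named were all 10 genes, up to 3 called genes per list and comparison with the smallest adjusted p, the 3 genes most like CTPS1, and genes starting within 1000 bases on the opposite strand. MXI1, MXD3, MNT, ATF4, MTOR, CTPS2, ADSS2, MYC, MTHFD2 and overlapping AC068620.3 were added after their values were seen.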

Additional observations from a re-analysis of the deposited data

How the results depend on the processing

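Of 420 refitted log2 fold changes of the 10 genes, 376 kept their direction and side of the threshold, 23 lost a call, 9 gained one (all with the replicate block), and 12 changed sign, all of these in uncalled differences between the drugs. Against DMSO no value changed sign in any alternative. The calls of CTPS1 and IMPDH2 under Degrader held in all 14 alternatives. With the replicate block, 8 of the 10 genes were called under Degrader, 8 under GDC0068 and 1 (CTPS1) between the drugs, and 6114, 3540 and 2065 of all genes. Leaving out 1 library gave 2 to 5 genes of the 10 under Degrader, 0 to 2 under GDC0068 and 0 between the drugs, and 931 to 3217, 37 to 546 and 5 to 63 of all genes. The lowest counts of the 10 came without Degrader replicate 2 and without DMSO replicate 1. Between the drugs, DESeq2 called 141 of all genes, robust estimation 116 and the 4 libraries alone 23, against 53; the cause was not tested. UMPS between the drugs was 0.0018 with RLE scaling, 0.0032 without the filter and 0.0019 with DESeq2. Leaving out 1 library, the difference between the drugs ranged from -0.031 to 0.015 for PPAT, -0.027 to 0.087 for PAICS, -0.081 to 0.049 for GART, -0.0015 to 0.027 for CAD, -0.066 to 0.15 for DHODH and -0.043 to 0.052 for UMPS. Scaling moved the median of all genes by less than 0.01. Counting error was at most 3.82% per value, and each group's spread was measured on 2 libraries only.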

Other observations

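RRM2, the inducible small subunit of ribonucleotide reductase, differed more between the replicates than between the groups. It gave 46.5 and 57.5 CPM in DMSO replicates 1 and 2, 39.5 and 49.2 under GDC0068, and 44.0 and 55.1 under Degrader, so replicate 2 was the higher library in all 3 groups. By edgeR its change was -0.22 under GDC0068 (edgeR adjusted p = 0.352, or 0.00204 with the replicate block) and -0.07 under Degrader (edgeR adjusted p = 0.768, or 0.313 with the block). This gene was singled out after its values were seen, and no cause was tested.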
